A study of Mus musculus with 17 samples.

Results

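The genes described here encode the nuclear subunits of the mitochondrial respiratory chain and of ATP synthase, measured by RNA sequencing in mouse splenic dendritic cells. Members were the protein-coding genes whose symbol starts with Nduf, Uqcr, Cox4, Cox5, Cox6, Cox7, Cox8 or Atp5, together with Sdha, Sdhb, Sdhc, Sdhd, Cyc1 and Cycs, that had a mean raw count of 10 or more over all 17 samples. Of 31091 gene identifiers in the count table, 95 met the naming rule and 91 passed the count limit. The members comprised 37 subunits of complex I (7 core and 30 accessory subunits), 8 complex I assembly factors of the Ndufaf group, 4 subunits of complex II, 9 of complex III, cytochrome c (Cycs), 14 genes of complex IV and 18 of ATP synthase.

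The study asked how debris of tumor cells that died in different ways changes type 1 and type 2 conventional dendritic cells (cDC1s and cDC2s), the cell types that take up dead cells and present their antigens to T cells. Enriched splenic CD11c+ cells from female adult C57BL/6JRj mice, in which a B16 tumor secreting FLT3 ligand had expanded the dendritic cells, were cultured for 6 h with GM-CSF and the product of TC-1 cells, a murine lung carcinoma line, before cDC1s and cDC2s were sorted. In the WT groups this product was medium of unmodified TC-1 cells. In the BimS groups it came from TC-1-iBimS cells, a clonal subline in which a cumate-inducible lentiviral gene for the BH3-only protein BimS causes apoptosis, and in the RIPK3 groups from TC-1-iRIPK3 cells, a clonal subline with an inducible oligomerizing RIPK3 that causes necroptosis. All 3 lines had received cumate. Spleens of several mice were pooled in each experiment, there were 3 samples in every group and 2 in cDC2 RIPK3, and nothing in the sample descriptions says whether samples of a group came from separate animals, so p-values measure only the spread between these samples, which may be technical.

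The respiratory chain sits in the inner mitochondrial membrane. Complex I (NADH dehydrogenase) and complex II (succinate dehydrogenase, also an enzyme of the TCA cycle) pass electrons to ubiquinone, complex III passes them to cytochrome c, and complex IV (cytochrome c oxidase) passes them to oxygen, while ATP synthase (complex V) makes ATP with the proton gradient that complexes I, III and IV build. Most subunits are encoded in the nucleus and some in mitochondrial DNA (mtDNA), so that each complex except the wholly nuclear complex II is assembled from both sources, and activated dendritic cells are known to shift from respiration towards glycolysis.

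NRF-1 (nuclear respiratory factor 1) is a known regulator of nuclear respiratory genes, and its core motif GCATGCGC was searched on both strands of the RefSeq promoter windows, from 250 bases before to 50 bases after the transcription start (build GRCm38.p6). It was found in 13 of the 75 members that had a promoter entry, or 17.3%, and in 3.94% of 17492 promoters of protein-coding genes. The ETS core CCGGAAG was found in 24% of the members and 12.9% of all promoters, the YY1 core AAGATGG in 16% and 7.18%, the CRE TGACGTCA in 6.67% and 2.54%, and the AP-1 motif TGAGTCA in 8% and 5.4%. The CCAAT box stood in 42.7% of the members and 42.3% of all promoters and TATAAA in 6.67% and 14.8%. To show what the shared motif looks like across the chain, 1 window each is given for complexes I, II and IV, cytochrome c and ATP synthase, 5′ to 3′ on the strand of the gene, with the NRF-1 core in capitals (GCGCATGC is the same core read from the other strand).
Ndufa6 (complex I accessory subunit, chr15:82354337-82354404, minus strand): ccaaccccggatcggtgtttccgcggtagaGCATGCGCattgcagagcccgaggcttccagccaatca
Sdhb (iron-sulfur subunit of complex II, chr4:140961187-140961254, plus strand): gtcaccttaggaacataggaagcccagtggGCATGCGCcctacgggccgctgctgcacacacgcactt
Cycs (cytochrome c, chr6:50566592-50566659, minus strand): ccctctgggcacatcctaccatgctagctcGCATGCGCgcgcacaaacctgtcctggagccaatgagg
Cox6a1 (complex IV subunit, chr5:115349083-115349150, minus strand): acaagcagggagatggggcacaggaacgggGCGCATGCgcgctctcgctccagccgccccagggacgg
Atp5mc2 (a gene for subunit c of the ATP synthase ring, chr15:102671052-102671119, minus strand): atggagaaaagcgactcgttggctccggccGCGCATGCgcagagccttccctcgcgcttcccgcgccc
A match of letters is a description of the window and not evidence of binding.

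The 17 libraries held 16095159 to 21645289 counts (median 18986002). Levels are given as CPM, read counts scaled to a common library size with TMM factors, and differences as log2 fold changes from edgeR's quasi-likelihood test with its standard error, where a gene was called at a Benjamini-Hochberg adjusted p below 0.05 over all genes tested. Lineage markers followed the labels, since Xcr1 lay between 147.7 and 235.6 CPM in cDC1s and between 0.462 and 0.97 in cDC2s, and Sirpa between 0.954 and 2.3 in cDC1s and 173.8 and 206.4 in cDC2s. Summed markers reached at most 1.49 CPM for B cells, 1.23 for T and NK cells, 2.698 for neutrophils and 1.495 for erythroid cells. The macrophage list summed to 32.5 to 62.7 CPM over all samples, with 2 to 6 of its 8 genes under 1 CPM in every sample of a group. The plasmacytoid dendritic cell list summed to 60.55 to 66.0 CPM in cDC1 WT, 54.3 to 57.1 in BimS and 55.3 to 60.5 in RIPK3. In cDC2s it summed to 191.8 to 216.5 CPM in WT, 187.5 to 201.6 in BimS and 172.6 to 174.9 in RIPK3. Of its 5 genes, 2 were under 1 CPM in every sample of each cDC1 group and 3 in every sample of each cDC2 group. A list of TC-1 tumor cell genes (7 of 8 in the table) summed to 8.75 to 10.8 CPM in cDC1s and 31.5 to 49.2 in cDC2s and was lowest in the RIPK3 groups of both. The part of these other cells in the levels below was not tested, and in bulk samples fewer cells of a type and less RNA per cell cannot be told apart.

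Per kb of transcript, member levels ran from 0.478 to 317.5 CPM per kb with a median of 28.7, and the highest were Atp5f1b (317.5), the catalytic beta subunit of ATP synthase, Cox4i1 (250.9), a regulatory subunit of complex IV, Atp5if1 (243), the inhibitor that stops ATP synthase from running backwards and hydrolysing ATP, Ndufa6 (233.3) and Cox5b (221.5). The medians were 78.7 CPM per kb for complex IV, 51.0 for ATP synthase, 49.7 for complex III, 29.4 for complex II, 23.7 for complex I and 2.42 for the complex I assembly factors, and Cycs stood at 3.90. Some members share sequence with other loci, and how reads that match several loci were counted was not tested. In 7 members more than 50% of the 54-base windows of the transcript, the length of a read, occurred elsewhere in the genome, namely Atp5mc2 (88.4%), Atp5mc1 (83.5%), Ndufs5 (74.5%), Cox7c (71.3%), Atp5mg (67.6%), Cox5b-ps (60.6%) and Uqcrb (55.8%), while 58 members were under 5% and 38 at 0. In 10 members over 50% of the exon bases overlapped another gene, among them Atp5mk (100%, Pdcd11 and Taf5 on the other strand), Ndufb11 (67.8%, Rbm10 on the other strand), Atp5if1 (59.6%, Gm12999 on the other strand), Ndufa6 (59.0%, Smdt1 on the other strand), Ndufb1 (54.8%, Cpsf2 on the other strand) and Ndufb8 (68.6%, Gm20538 on the same strand). Levels of these members are uncertain, since the strand setting of the counting is not given in the sources used here.

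**Figure D1:**
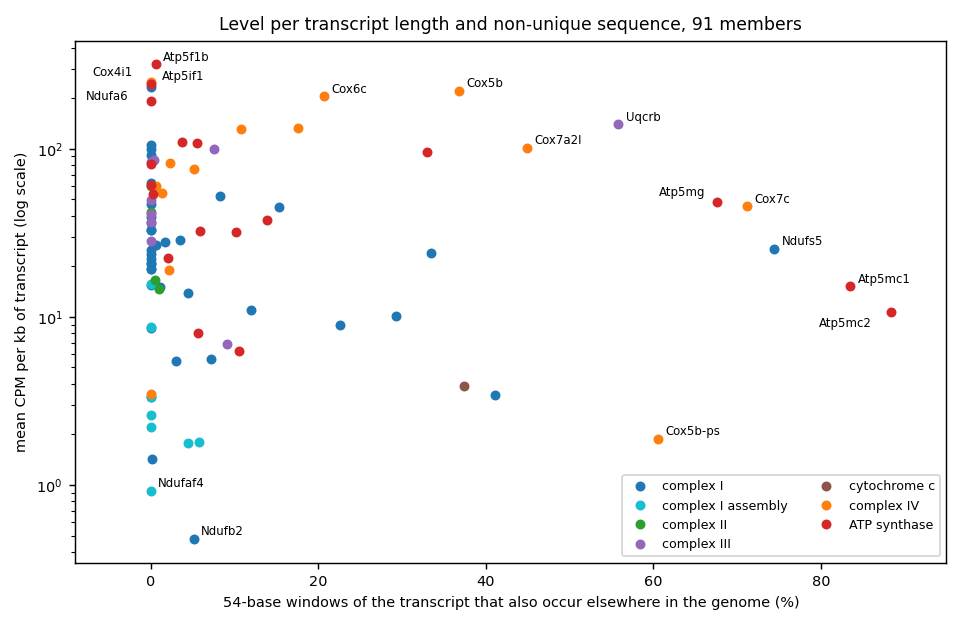
Mean level of each of the 91 members in CPM per kb of transcript (log axis) against the percent of 54-base windows of its transcript that occur elsewhere in the genome, with 1 point per gene coloured by complex. Atp5f1b, Cox4i1 and Atp5if1 lie at the top left with almost no shared windows, and Atp5mc1 and Atp5mc2 at the right with over 80% shared in each.

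In cDC1s, apoptotic debris changed few members. Ndufa4, Atp5if1 and Ndufab1 rose and Uqcrh fell in cDC1 BimS against cDC1 WT, which made 4 of 91 members called beside 13.2% of all genes tested. The median log2 fold change of the members was 0.01 and that of all genes 0.00. Necroptotic debris against WT gave again 3 rises (Ndufab1, Atp5if1 and Ndufa4) and 1 fall (Atp5mc2) beside 16.5% of all genes, with medians of 0.04 for the members and -0.01 for all genes. Of the genes at or above the members' lower quartile of level, 27.5% were called under BimS and 33.6% under RIPK3. Both comparisons share the WT samples. The 95% interval of the log2 fold change lay within 0.5 of 0 for 84 of the 91 members in each, so that a change of that size was left possible for 7. With the replicate number as a block, calls increased to 6 rises and 1 fall under BimS (17.9% of all genes) and to 8 rises and 1 fall under RIPK3 (21% of all genes). The genes added by the block were Atp5po, Atp5mf and Ndufs1 under BimS, and Ndufaf3, Cox8a, Atp5f1d, Cox6a1 and Uqcrq under RIPK3, all higher with debris.

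Atp5if1 (GRCm39 chr4:132257215-132262823, minus strand), the inhibitor of ATP hydrolysis by ATP synthase, was the member with the smallest adjusted p under both kinds of debris. Its levels were 169.1, 182.2 and 188.2 CPM in the 3 cDC1 WT samples, 214.4, 210 and 214 in BimS and 206.9, 223.1 and 243 in RIPK3. All 6 debris samples lay above all 3 WT samples. The log2 fold change was 0.24 ± 0.05 (SE, adjusted p = 0.00118, edgeR) for BimS and 0.32 ± 0.05 (adjusted p = 2.26e-05) for RIPK3.

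Ndufab1 (chr7:121684626-121701393, minus strand) encodes the mitochondrial acyl carrier protein, which is a complex I subunit and also serves mitochondrial fatty acid synthesis. It stood at 40.9, 43.0 and 41.2 CPM in WT, 49.2, 47.7 and 46.0 in BimS and 52.4, 52.2 and 54.8 in RIPK3. The 3 groups did not overlap, and the RIPK3 samples were the highest. Log2 fold changes were 0.19 ± 0.06 (adjusted p = 0.0267, edgeR) for BimS, a call lost when any of WT replicate 1, WT replicate 3, BimS replicate 1 or BimS replicate 2 was left out (lowest value 0.16), and 0.35 ± 0.06 (adjusted p = 3.04e-05) for RIPK3.

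Ndufa4 (chr6:11897630-11907496, minus strand), named for complex I but known as a subunit of complex IV, measured 40.5, 42.5 and 38.9 CPM in WT, 50.5, 44.6 and 49.3 in BimS and 45.1, 47.4 and 54.03 in RIPK3. Every debris sample was above every WT sample. It was 0.24 ± 0.07 higher on the log2 scale in BimS (adjusted p = 0.0113, edgeR) and 0.26 ± 0.07 higher in RIPK3 (adjusted p = 0.00484), and the BimS call was lost without WT replicate 3, BimS replicate 1 or BimS replicate 3.

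Uqcrh (chr4:115923314-115932296, minus strand), the hinge protein of complex III that lies next to cytochrome c1, was at 141.7, 139.2 and 130.8 CPM in WT and 122.1, 122.1 and 115.9 in BimS, with no overlap. It fell by 0.19 ± 0.05 on the log2 scale (adjusted p = 0.00852, edgeR), and the call was lost without WT replicate 1 or BimS replicate 3. The RIPK3 samples, at 127.2, 122.6 and 134.5 CPM, overlapped WT and were not called.

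Atp5mc2 (chr15:102571295-102580787, minus strand) is 1 of 3 genes for the same mature c subunit of the proton-driven ring. It had 10.3, 12.1 and 9.84 CPM in WT, 9.07, 9.21 and 10.3 in BimS and 7.94, 8.33 and 7.77 in RIPK3, where all samples were below all WT samples. It fell by 0.42 ± 0.11 under RIPK3 (adjusted p = 0.00734, edgeR), a call lost without WT replicate 2 (highest adjusted p over the alternatives 0.0884). In the same comparison the other ring genes Atp5mc1 (0.27, adjusted p = 0.104) and Atp5mc3 (-0.02, adjusted p = 0.877) were not called. Most windows of Atp5mc1 and Atp5mc2 are not unique, and the part of this in the values was not tested.

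**Figure D2:**
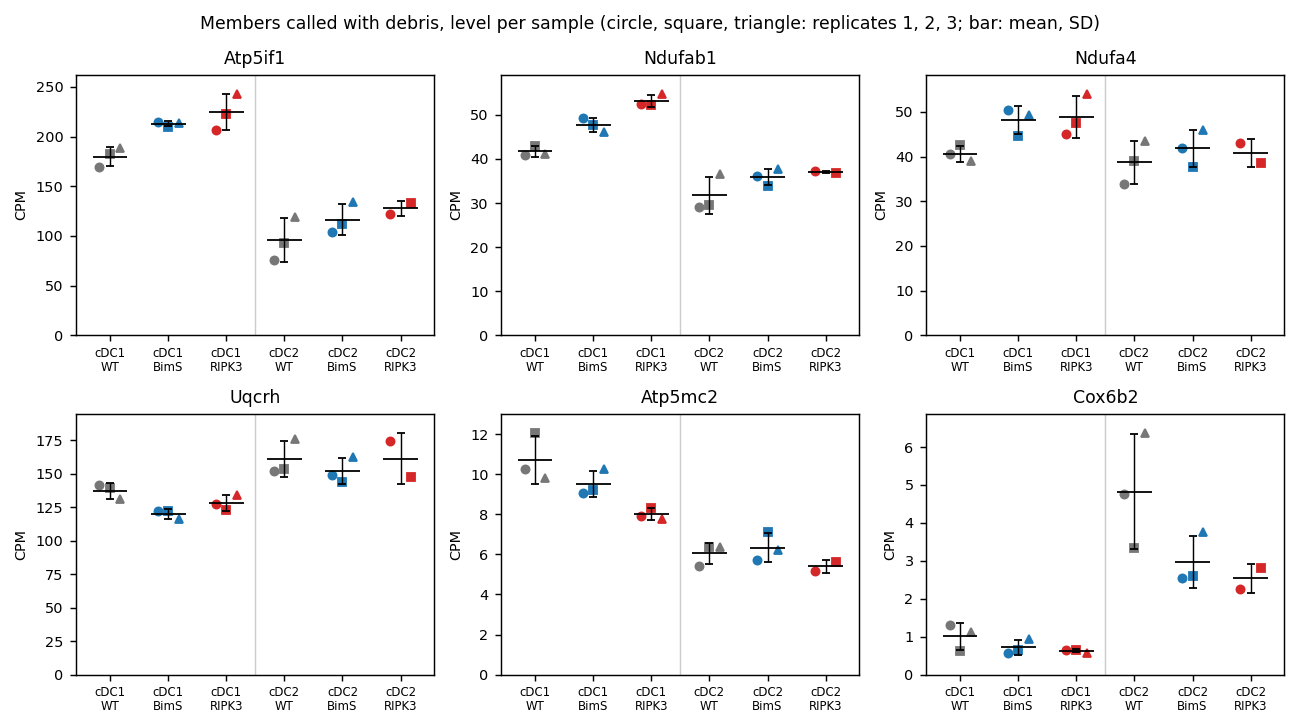
CPM per sample of Atp5if1, Ndufab1, Ndufa4, Uqcrh, Atp5mc2 and Cox6b2 in the 6 groups, where points are samples, symbols mark replicates 1 to 3 and bars show mean and SD. Atp5if1, Ndufab1 and Ndufa4 lie higher in all 6 debris samples of cDC1s than in the 3 WT samples, and Cox6b2 lies higher in every cDC2 sample than in every cDC1 sample.

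In cDC2s, samples of a group differed more, and calls depended on the replicate block. The median standard error of the members was 0.11 to 0.12 on the log2 scale, against 0.07 in cDC1s. Under BimS no member was called beside 7.01% of all genes (edgeR, with 5 members at an unadjusted p below 0.05, and 0 called by DESeq2). Under RIPK3 1 member, Cox6b2, fell, beside 7.21% of all genes. The medians were -0.04 for the members and -0.02 for all genes under BimS, and -0.01 and -0.02 under RIPK3. With the block, 3 members rose and 7 fell under BimS (21.3% of all genes), and 13 rose and 2 fell under RIPK3 (21.4% of all genes). Without the block, 13.3% and 13.9% of the genes at or above the members' lower quartile of level were called. These comparisons share the cDC2 WT samples.

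Cox6b2 (chr7:4754789-4756093, minus strand), the isoform of the complex IV subunit Cox6b known from testis, had 4.77, 3.33 and 6.37 CPM in cDC2 WT, 2.56, 2.59 and 3.76 in BimS and 2.26 and 2.81 in RIPK3. Both RIPK3 samples lay below all WT samples, while BimS and WT overlapped. It fell by 0.93 ± 0.27 on the log2 scale (adjusted p = 0.0372, edgeR, interval -1.49 to -0.37) and by 0.70 with the block (adjusted p = 0.0095). The call was lost in 7 of 16 alternatives, among them leaving out cDC2 WT replicate 1 or 3, BimS replicate 2 or either RIPK3 sample.

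Atp5if1 in cDC2s stood at 75.4, 93.0 and 119.5 CPM in WT, 103.5, 111.8 and 133.7 in BimS and 122.5 and 133.1 in RIPK3. WT and BimS overlapped, and in replicates 1 and 2 the order was WT, BimS, RIPK3 from low to high, while replicate 3 was lower in WT than in BimS. BimS gave a log2 fold change of 0.28 (adjusted p = 0.371, edgeR) without the block and 0.29 with it (adjusted p = 3.73e-08). RIPK3 gave 0.41 without the block (adjusted p = 0.207) and 0.56 with it (adjusted p = 2.32e-21). Ndufab1 had 29.0, 29.5 and 36.6 CPM in cDC2 WT, 36.2, 33.9 and 37.6 in BimS and 37.2 and 36.9 in RIPK3, and its log2 fold change was 0.18 for BimS (adjusted p = 0.385, with the block 0.18 and 0.031) and 0.21 for RIPK3 (adjusted p = 0.325, with the block 0.29 and 0.00172). Ndufa4 in cDC2s lay between 33.8 and 45.9 CPM and was called in neither fit.

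The remaining calls with the block in cDC2s fell on several complexes. Under BimS Ndufs1, the largest core subunit of complex I, was higher, and the lower genes included Ndufa6 and Ndufa10 of complex I, Uqcrfs1 (the Rieske iron-sulfur protein of complex III), Cox7a2l (a factor that joins complexes III and IV in supercomplexes), Cox6b2 and Atp5f1c (the gamma subunit of the ATP synthase rotor). Under RIPK3 the higher genes besides Atp5if1 and Ndufab1 were Atp5f1d, Atp5mk, Atp5mg, Atp5mj, Cox8a, Cox5b, Cox4i1, Cox6a1, Uqcrq, Uqcrb and Sdhc, and the lower ones Ndufv3 and Cox6b2. The levels of cDC2 WT replicate 3 were above those of the other WT samples in 81 of the 91 members, and those of cDC2 BimS replicate 3 in 78, and cDC2 RIPK3 has no replicate 3. In cDC1s replicate 3 was the highest for 28 members in WT, 20 in BimS and 75 in RIPK3.

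**Figure D3:**
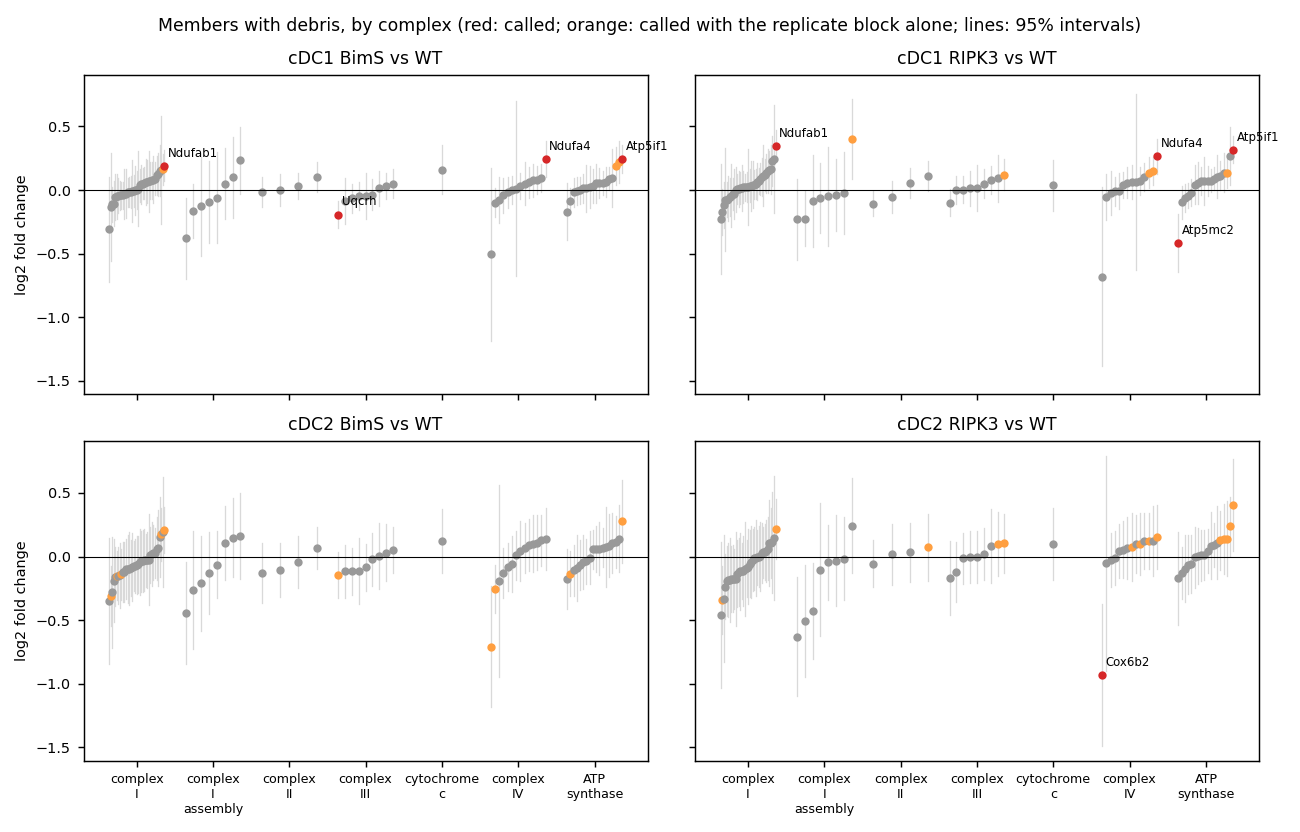
Log2 fold changes with 95% intervals of the 91 members for BimS and RIPK3 against WT in cDC1s and cDC2s, with members called without the block in red and members called with the block alone in orange. Most intervals lie within 0.5 of 0 in all 4 panels, and those of cDC2s are wider.

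Necroptotic against apoptotic debris was compared directly. In cDC1s no member was called in RIPK3 against BimS beside 4.15% of all genes (edgeR, 9 members at an unadjusted p below 0.05, DESeq2 0), and in cDC2s none beside 0.379% (3 members at an unadjusted p below 0.05, DESeq2 0). With the block Uqcrq rose and Sdha, the catalytic flavoprotein of complex II, fell in cDC1s (8.87% of all genes). With the block in cDC2s 18 members rose and 2 fell (14.3% of all genes). The 18 rises included Ndufa6 (0.36), Atp5f1d (0.33), Cox5a (0.30), Cox7a2l (0.30), Cox4i1 (0.26), Sdhb (0.22) and Uqcrfs1 (0.18), and the falls were Ndufs1 (-0.20) and Sdha (-0.16). The same comparison without the block gave log2 fold changes of 0.25 for Ndufa6, 0.25 for Cox5a and 0.16 for Cox4i1, none called.

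Whether debris acted differently on the members in cDC1s and cDC2s was tested with an interaction term over all 17 samples. No member was called for BimS against WT (0.87% of all genes), RIPK3 against WT (1.14%) or RIPK3 against BimS (0.0314%), with 2, 1 and 0 members at an unadjusted p below 0.05 in edgeR, 0 calls in each by DESeq2 and 0 in each with the block. For Atp5if1 the difference of the log2 fold changes, cDC1 minus cDC2, was -0.04 (95% interval -0.42 to 0.35) for BimS and -0.10 (-0.50 to 0.31) for RIPK3. The intervals lay within 0.5 of 0 for 72, 66 and 72 of the 91 members in these 3 comparisons, so smaller differences between the cell types could not be detected for many members.

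Levels were also summed over each complex. The 91 members summed to 5698 ± 100 CPM in cDC1 WT (SD, n = 3), 5797 ± 143 in BimS and 5926 ± 291 in RIPK3, and to 5559 ± 601 in cDC2 WT (n = 3), 5511 ± 376 in BimS (n = 3) and 5706 ± 43.1 in RIPK3 (n = 2). The ATP synthase genes summed to 2199 ± 33.2, 2286 ± 46.7 and 2319 ± 105 CPM in cDC1s and 2082 ± 171, 2133 ± 134 and 2192 ± 14.9 in cDC2s, in the order WT, BimS, RIPK3. In cDC1s the sums of all 3 BimS samples (2252 to 2339) and all 3 RIPK3 samples (2232 to 2436) were above those of WT (2162 to 2226), and in cDC2s the groups overlapped. These sums include Atp5if1, whose rise is given above, and sums without it were not compared. In cDC1s 1 of the 18 ATP synthase genes rose under BimS (13.2% of all genes were called). Under RIPK3 1 rose and 1 fell (16.5%). Complex I summed to 1373 ± 21.7, 1387 ± 35.4 and 1422 ± 79.0 CPM in cDC1s and 1333 ± 178, 1272 ± 95.6 and 1300 ± 1.41 in cDC2s, with overlapping groups in both cell types.

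**Figure D4:**
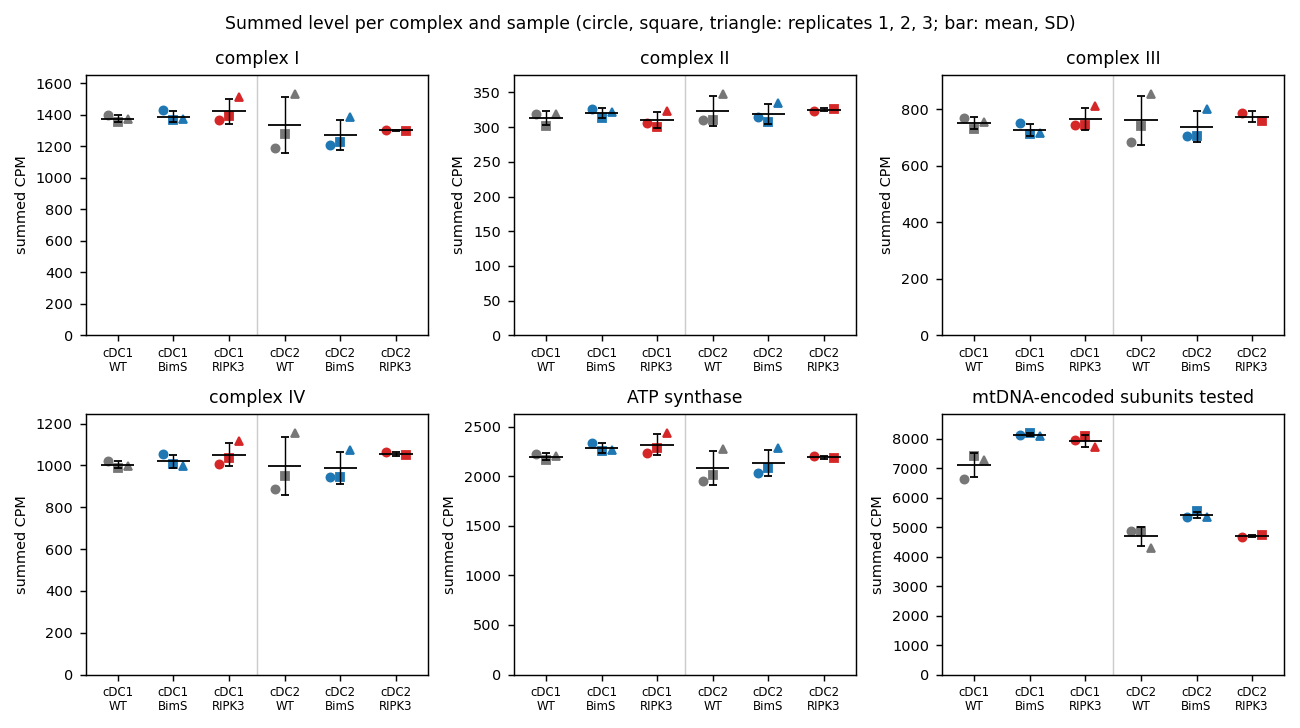
Summed CPM of the members of complexes I, II, III and IV and ATP synthase, and of the 8 tested mtDNA-encoded subunits, in each sample (circle, square and triangle are replicates 1, 2 and 3, bars are mean and SD). The nuclear sums overlap between the cell types, while the mtDNA-encoded sums of every cDC1 sample lie above those of every cDC2 sample.

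The fixed reference subunits of the complexes, chosen as representatives whatever their values, were compared too, and are given for cDC1 RIPK3 against WT. In cDC1 RIPK3 against WT the log2 fold changes were 0.02 for Ndufs1 and 0.02 for Ndufv1 (core of complex I), -0.11 for Sdha and 0.05 for Sdhb (complex II), 0.00 for Uqcrc1, 0.08 for Uqcrfs1 and 0.01 for Cyc1 (complex III, Cyc1 being cytochrome c1). In the same comparison they were 0.04 for Cycs, 0.07 for Cox4i1, -0.01 for Cox5a, 0.14 for Cox6a1, -0.01 for Cox7a2l, 0.09 for Atp5f1a and 0.07 for Atp5f1b (the alpha and beta subunits of the ATP synthase head). None of these was called without the block in that comparison, and Cox6a1 was with it. The same reference set also holds Atp5if1 (0.32) and Ndufa4 (0.26), which were called without the block, as given above. With the block Ndufs1 was higher under BimS in cDC1s (0.16) and cDC2s (0.21), and Cox7a2l (-0.25) and Uqcrfs1 (-0.14) were lower in cDC2 BimS. Of the 13 members with the NRF-1 core in their promoter, none was called in cDC1 BimS against WT (13.2% of all genes, log2 fold changes -0.38 to 0.16), 1 fell in cDC1 RIPK3 against WT (Atp5mc2, 16.5% of all genes), and none was called in cDC2 BimS (7.01%) or cDC2 RIPK3 against WT (7.21%). The block added Cox6a1 (higher) in cDC1 RIPK3 (21% of all genes) and Ndufa6 (lower) in cDC2 BimS (21.3%). In cDC2 RIPK3 it added Atp5mg and Cox6a1, both higher (21.4%).

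Between the cell types many members differed in both directions. Over all 9 cDC1 and 8 cDC2 samples, with the medium as an additive term, 24 members were higher in cDC1s and 28 lower, so that 52 of 91 (57.1%) were called beside 59.8% of all genes tested and 81.3% of genes at or above the members' lower quartile of level. This fit takes the 17 samples as independent. With the replicate number as a block, 25 members were higher and 30 lower (60.7% of all genes). The median log2 difference was -0.01 for the members and 0.03 for all genes. The split depended on the scaling, with 20 higher and 29 lower under upper-quartile factors, 25 and 27 under RLE factors, and 48 and 5 in limma on unnormalized log2(count + 1), which moved the median of all genes by 0.17 towards cDC1s. The levels of the 9 cDC1 and the 8 cDC2 samples did not overlap for 11 members higher and 8 lower in cDC1s, beside 29.4% of all genes. Calls by complex were 12 higher and 10 lower for complex I, 1 and 2 for the assembly factors, 0 and 1 for complex II, 3 and 5 for complex III, 4 and 5 for complex IV and 4 and 5 for ATP synthase, and Cycs was not called.

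Of the members higher in cDC1s, Ndufa12 (chr10:94034582-94057450, plus strand), an accessory subunit of the matrix arm of complex I, differed most. It had 14.4, 16.7 and 14.6 CPM in cDC1 WT, 16.4, 15.2 and 16.8 in BimS and 14.9, 15.5 and 16.6 in RIPK3. In cDC2s it had 5.75, 6.71 and 5.88 CPM in WT, 5.78, 7.58 and 6.98 in BimS and 5.76 and 5.16 in RIPK3. Every cDC1 sample was above every cDC2 sample, and the log2 difference was 1.34 ± 0.07 (adjusted p = 1.04e-16, edgeR). A share of 22.6% of its windows occurs elsewhere, and the pseudogene Ndufa12-ps, looked up after these values were seen, differed by 0.55 (adjusted p = 0.0256).

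Ndufb11 (chrX:20481563-20484457, minus strand), an accessory subunit of the membrane arm, lay between 80.5 and 94.99 CPM in cDC1s and between 40.7 and 54.3 in cDC2s, a log2 difference of 0.91 ± 0.05 (adjusted p = 7.14e-16, edgeR). Rbm10, which overlaps 67.8% of its exon bases on the other strand and was looked up afterwards, differed by 0.46 (adjusted p = 9.32e-13). Atp5if1 was 0.87 ± 0.07 higher in cDC1s (adjusted p = 8.41e-10) with 309.7 against 168 CPM per kb. Atp5f1c had 221.9 to 251.6 CPM in cDC1s and 133.3 to 171 in cDC2s (0.68 ± 0.04, adjusted p = 3.85e-15), and Ndufv3, a small accessory subunit of the NADH-binding module, had 34.3 to 40.8 and 19.5 to 29.95 (0.68 ± 0.06, adjusted p = 7.28e-12). Atp5mc2 differed by 0.67 ± 0.08 (adjusted p = 6.19e-09). The cell types did not overlap for any of these 5 members.

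Of the members lower in cDC1s, Cox6b2 differed most, with 0.560 to 1.30 CPM in cDC1s and 2.26 to 6.37 in cDC2s, a log2 difference of -2.12 ± 0.17 (adjusted p = 1.6e-12, edgeR). Atp5f1d, the delta subunit of the ATP synthase rotor, had 68.5 to 82.7 CPM in cDC1s and 90.4 to 126.6 in cDC2s (-0.55 ± 0.05, adjusted p = 7.54e-11). Atp5pd, subunit d of the peripheral stalk, had 89.9 to 105.2 and 119.7 to 160.4 (-0.50 ± 0.05, adjusted p = 2.49e-10). Neither overlapped between the cell types. Within the ATP synthase rotor the gamma subunit was higher and the delta subunit lower in cDC1s. Ndufb1, an accessory subunit of the membrane arm, had 31.4 to 40.5 CPM in cDC1s and 41.9 to 54.9 in cDC2s (-0.46 ± 0.06, adjusted p = 2.78e-08). Ndufaf5, an assembly factor that modifies a core subunit of complex I, differed by -0.59 ± 0.10 (adjusted p = 7.15e-06), and Ndufb4 by -0.44 ± 0.13 (adjusted p = 0.00418), both at under 10 CPM in all samples.

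Of the reference subunits, Atp5if1 differed most between the cell types (0.87 higher in cDC1s, as given above), and the others differed little. Ndufa4 was 0.17 higher in cDC1s and was called. Uqcrc1 (-0.24, adjusted p = 7.27e-06, edgeR), Cyc1 (-0.23, adjusted p = 0.000325) and Cox5a (-0.25, adjusted p = 5.37e-05) were lower in cDC1s, and Uqcrfs1 was higher (0.17, adjusted p = 0.000756), so that genes of complex III went in both directions. Sdha (-0.12, adjusted p = 0.00327) and Ndufs1 (-0.10, adjusted p = 0.0397) were lower too, with 0.07 and 0.09 on unnormalized counts, where the median of all genes was shifted by 0.17. Cox7a2l was 0.12 higher (adjusted p = 0.0365). The Ndufs1 call was kept in 13 and the Cox7a2l call in 15 of 25 alternatives. Not called were Atp5f1b (0.07, adjusted p = 0.0846), Atp5f1a (0.06, adjusted p = 0.141), Cycs (0.10, adjusted p = 0.178), Ndufv1 (0.04, adjusted p = 0.477), Cox6a1 (0.05, adjusted p = 0.488), Sdhb (0.01, adjusted p = 0.901) and Cox4i1 (0.01, adjusted p = 0.94). Of the 13 members with an NRF-1 core 4 were higher and 4 lower in cDC1s, beside 59.8% of all genes called.

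**Figure D5:**
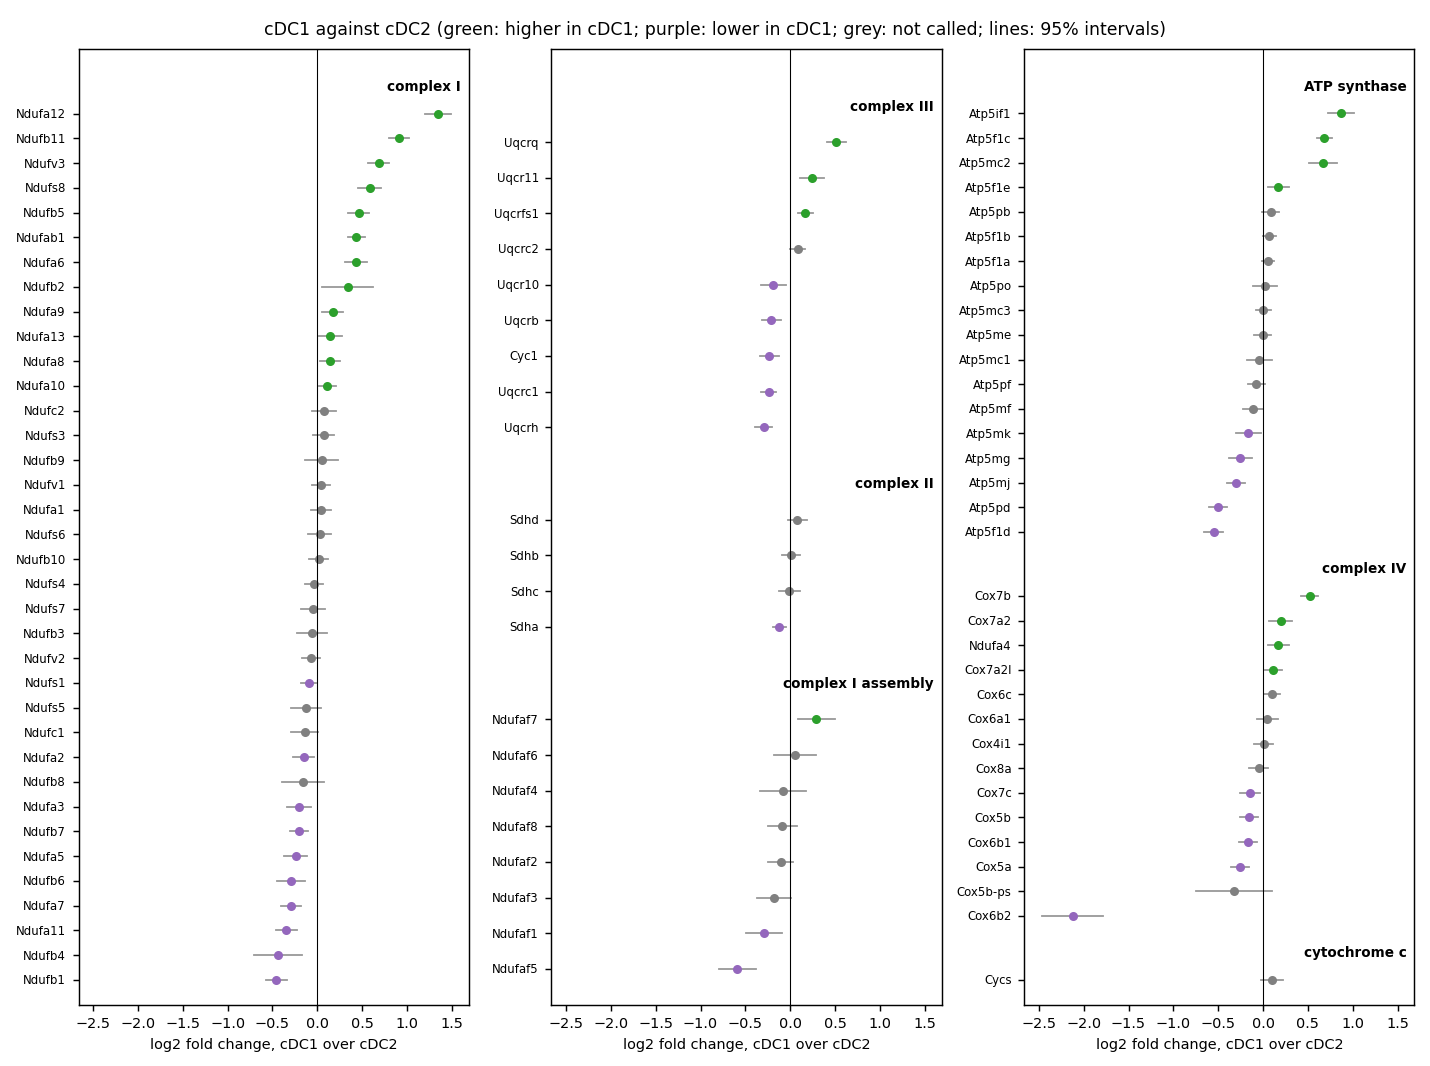
Log2 difference between cDC1s and cDC2s with 95% intervals for the members, except 1 that is not reported here, ordered within complexes, with genes higher in cDC1s in green and lower in purple. Calls of both colours occur in complexes I, III and IV and in ATP synthase, and Ndufa12 (1.34) and Cox6b2 (-2.12) are the ends of the range.

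Complex IV has subunits with a widespread isoform and one known from muscle, testis or low oxygen. Cox6b1 was at 56.7 CPM per kb in cDC1s and 63.7 in cDC2s, and its isoform Cox6b2 at 1.31 and 5.93. The log2 difference of Cox6b1 was -0.17 (adjusted p = 0.00237, edgeR) and was 0.03 on unnormalized counts, where the median of all genes was shifted by 0.17. The muscle isoform Cox6a2 (mean count 7.47), the lung isoform Cox4i2 (2.29), the muscle isoform Cox7a1 (1.59) and Ndufa4l2 (0.82), a relative of Ndufa4 induced at low oxygen, fell under the limit and are the 4 genes left out by it. The members just above the limit were Cox5b-ps (mean count 17.5), Cox6b2 (38.2) and Ndufb2 (39.7). The widespread partners were all members, and Cox7b was 0.52 higher in cDC1s while Cox8a was not called (-0.05, adjusted p = 0.425). Cox7b2, Cox8b and Cox8c were not analysed here.

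The mtDNA encodes the partner subunits of complexes I, III and IV and of ATP synthase. Of 13 such genes 8 were tested, and all 8 were higher in cDC1s than in cDC2s (59.8% of all genes were called), from 0.10 (mt-Nd1, adjusted p = 0.0176, edgeR, lost with upper-quartile factors and without cDC2 RIPK3 replicate 1) to 0.81 (mt-Co1, the catalytic subunit of complex IV, adjusted p = 8.03e-17). Their sum was 7114 ± 412 CPM in cDC1 WT, 8131 ± 50.1 in BimS and 7923 ± 189 in RIPK3 (SD, n = 3 each). In cDC2s it was 4685 ± 329 in WT, 5412 ± 111.8 in BimS (n = 3 each) and 4702 ± 39.6 in RIPK3 (n = 2). The BimS sums lay above those of all WT samples in both cell types, and the RIPK3 sums did so in cDC1s alone. The largest part of the sums was mt-Co1, with means of 4430, 4955 and 5118 CPM in cDC1 WT, BimS and RIPK3. In cDC2s its means were 2654, 2909 and 2675 CPM. Sums without mt-Co1 were not compared. The median log2 fold change of the 8 genes in cDC1s was 0.24 under BimS and 0.05 under RIPK3.

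Under BimS 6 of 8 mtDNA-encoded genes rose in cDC1s (13.2% of all genes were called) and 2 in cDC2s (7.01%), where all 8 were higher with the block (21.3%). The 6 calls in cDC1s were lost in limma on unnormalized log2(count + 1), and that of mt-Co1 also without WT replicate 1. The apocytochrome b gene of complex III, mt-Cytb, had 667.4, 753.3 and 740.4 CPM in cDC1 WT, 849.3, 879 and 854.6 in BimS and 793.1, 830.3 and 807 in RIPK3. Its log2 fold change for BimS was 0.26 in cDC1s (adjusted p = 9.7e-05, edgeR) and 0.33 in cDC2s (adjusted p = 0.0127). The cDC2 calls of mt-Cytb and mt-Nd5 were lost without BimS replicate 2 and in limma on unnormalized log2(count + 1). Under RIPK3 2 rose in cDC1s (16.5% of all genes), mt-Cytb (0.17) and mt-Co1 (0.21), the first not without WT replicate 1 or RIPK3 replicate 2, and none was called in cDC2s (with the block 1 higher and 1 lower). Both of these cDC1 calls were also lost in limma on unnormalized log2(count + 1). In RIPK3 against BimS mt-Nd1, mt-Nd2 and mt-Nd5 fell in cDC1s (4.15% of all genes), of which the first was lost in 11 and the last in 3 of 17 alternatives, and mt-Nd2 fell in cDC2s (-0.42, adjusted p = 0.0415, 0.379% of all genes), a call lost in 8 of 16 alternatives, where the block gave 7 lower (14.3%). The RNA was selected by poly-A tails, and windows found elsewhere made up 98.98% of mt-Nd3, 62.1% of mt-Nd4 and 49.1% of mt-Co1, whose part in the values was not tested. In mt-Co2 and mt-Atp6, which were not among the tested genes, 100% of the windows occur elsewhere, and mean levels were 0.0034 and 0.0026 CPM.

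Genes that serve the same pathway were read from lists of assembly factors, the TCA cycle, carriers, quinone supply and regulators, 114 genes tested within each cell type. In cDC1s 9 rose and 4 fell under BimS (13.2% of all genes were called), and 9 rose and 5 fell under RIPK3 (16.5%). In cDC2s 3 rose and 3 fell under BimS (7.01%), and 2 rose and 3 fell under RIPK3 (7.21%). In RIPK3 against BimS Sco1 rose in cDC1s (0.22, 4.15% of all genes, lost in 4 of 17 alternatives) and none was called in cDC2s (0.379%). With the block 1 complex IV assembly factor and 1 carrier rose in cDC1s, and 2 regulators and 1 TCA cycle gene fell (8.87%). Its rises in cDC2s were 3 carriers, 2 complex IV assembly factors, 1 TCA cycle gene and 1 gene of supercomplexes and quinone supply. Its falls there were 2 regulators and 1 TCA cycle gene (14.3%). Fh1, the fumarase of the TCA cycle, had 41.7, 37.8 and 41.9 CPM in cDC1 WT, 33.4, 32.7 and 30.7 in BimS and 29.9, 26.4 and 30.6 in RIPK3. In cDC2s it had 42.6, 46.0 and 54.6 in WT, 29.6, 29.5 and 30.2 in BimS and 23.7 and 24.8 in RIPK3. Every debris sample was below every WT sample, with log2 fold changes of -0.33 and -0.48 in cDC1s and -0.68 and -0.98 in cDC2s for BimS and RIPK3, each called. Gpd2, the mitochondrial glycerol 3-phosphate dehydrogenase that feeds electrons to ubiquinone beside complexes I and II, rose by 0.38 and 0.33 in cDC1s and by 0.58 and 0.53 in cDC2s, and the last call was lost without RIPK3 replicate 1. It was 1.27 higher in cDC1s than in cDC2s.

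In the TCA cycle list of 18 genes, 4 rose and 1 fell in cDC1 BimS, 3 rose and 1 fell in cDC1 RIPK3, 1 rose and 1 fell in cDC2 BimS and 1 fell in cDC2 RIPK3. For this and the next lists the shares of all genes called were again 13.2%, 16.5%, 7.01% and 7.21%. Its rises in cDC1s included Ogdh (0.27 under BimS and 0.14 under RIPK3), Dlst (0.18 and 0.21) and, under BimS, Pdhb (0.20). Of 23 complex IV assembly factors, 2 rose and 1 fell in cDC1 BimS and 2 rose in cDC1 RIPK3, with Cox20 at 0.48 in both (lost in 5 and in 4 of 17 alternatives), and none was called in cDC2s. Of 5 ATP synthase assembly factors, Tmem70 fell in cDC1 BimS (-0.19) and cDC1 RIPK3 (-0.24) and Atpaf1 in cDC1 RIPK3 (-0.53, lost in 3 of 17 alternatives). The complex II assembly factor Sdhaf1 fell in cDC1 BimS (-0.29), cDC1 RIPK3 (-0.40) and cDC2 BimS (-0.51), while the other 3 of its list were not called. The cDC1 RIPK3 call held in all 17 alternatives, and the BimS calls were lost in 8 of 17 and 8 of 16. Of 10 further complex I assembly factors, Dmac1 rose in cDC1 RIPK3 (0.29) and Tmem126b fell in cDC2 BimS (-0.39), a call lost in 13 of 16 alternatives, among them leaving out any 1 sample. None of 9 complex III assembly factors was called under debris without the block, nor was Hccs, which attaches heme to cytochrome c.

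Of 10 carriers and uncoupling proteins, Vdac3, a channel of the outer membrane, rose by 0.26 and 0.31 in cDC1 BimS and RIPK3, and Ucp2, an inner membrane carrier, by 0.15 and 0.24, with none called in cDC2s (with the block 2 higher and 2 lower under BimS and 4 higher under RIPK3). Of 18 genes of supercomplexes and quinone supply, Gpd2 rose in all 4 comparisons and Coq8a, a kinase-like protein of ubiquinone synthesis, in cDC2 BimS (0.38, lost in 5 of 16 alternatives) and cDC2 RIPK3 (0.53, lost in 2 of 16). For RIPK3 against WT the interaction of Coq8a was -0.78 (adjusted p = 0.0413, edgeR), a call lost in 11 of 25 alternatives (adjusted p up to 0.391), and the gene was 4.16 lower on the log2 scale in cDC1s than in cDC2s. Of 16 mitochondrial biogenesis regulators, Polrmt, the mtDNA RNA polymerase, fell in cDC1 RIPK3 (-0.35) and cDC2 RIPK3 (-0.44), and Polg, the mtDNA polymerase, in cDC2 RIPK3 (-0.40), the cDC2 calls lost in 3 of 16 alternatives each. With the block the list counts in cDC2s grew, to 3 higher and 5 lower under BimS and 2 and 2 under RIPK3 for the TCA cycle, 2 and 1 and then 3 and 1 for complex IV assembly, and 1 and 2 and then 1 and 5 for the regulators, beside 21.3% and 21.4% of all genes. The block also gave 2 lower under BimS and 1 lower under RIPK3 for ATP synthase assembly, and under RIPK3 2 lower for complex I assembly, 1 for complex II assembly and 1 for complex III assembly. In cDC1 RIPK3 it gave 5 higher and 1 lower for complex IV assembly (21% of all genes).

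Between the cell types 39 of 115 genes of these lists were higher in cDC1s and 38 lower, beside 59.8% of all genes called. The counts, higher and then lower in cDC1s, were 6 and 7 of 18 for the TCA cycle, 7 and 7 of 23 for complex IV assembly, 6 and 3 of 10 for carriers, 5 and 5 of 18 for supercomplexes and quinone supply and 4 and 7 of 17 for regulators. They were 4 and 3 of 9 for complex III assembly, 3 and 3 of 10 for complex I assembly outside the members, 3 and 1 of 5 for ATP synthase assembly and 1 and 1 of 4 for complex II assembly, and Hccs was lower. The largest differences besides Coq8a were Idh2 (2.13), the mitochondrial isocitrate dehydrogenase that makes NADPH, the complex IV copper chaperone Sco1 (1.90), Ucp2 (1.75) and, with counts near 0, Ppargc1a (-3.65).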

How the data were processed

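RNA of sorted cDC1s and cDC2s was sequenced after poly-A selection. Per the labels and methods, the authors trimmed reads of 54 bases, aligned them with STAR 2.7.10a to GRCm39 and deposited 1 table of raw counts per gene. The strand setting is not given in the sources used here. Of 31239 lines, 148 without an identifier (0.0258 to 0.0366% of counts) were left out, and 30854 of 31091 identifiers were matched to GENCODE M39 for type and position.

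Samples were grouped by cell type and medium from their titles. Genes with a count in at least 50% of the samples of a fit were tested with edgeR 4.0.16 (R 4.3.3, TMM, robust quasi-likelihood test) in cDC1s and cDC2s apart, and over all 17 samples for the cell types and interactions, with Benjamini-Hochberg adjustment over all genes. The study's model, limma on log2(count + 1) without normalization, was run as an alternative and counted at the same adjusted p of 0.05 with no limit on the fold change, which is not the study's call rule. Other alternatives were DESeq2 1.42.0, RLE and upper-quartile factors, limma 3.58.1 on log2 CPM, other filters, leaving out each sample, and the replicate number as a block. The steps were tested on simulated data. Counts of replicates differed beyond sampling noise in every group (chi-square per gene 3.10 to 32.4), so no sample was a duplicate.

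Replicate numbers come from the titles. Deviations from the group mean correlated above 0.1 in 9 of 9 same-numbered pairs in cDC1s (median 0.31) and 7 of 7 in cDC2s (median 0.41), against medians of -0.15 and -0.28 for different numbers, so numbers were taken to pair the samples and blocked calls stand beside the results. Between a cDC1 and a cDC2 sample they did so in 19 of 24 same-numbered pairs (median 0.20), against a median of -0.10 for different numbers.

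Members and lists were chosen with earlier results of these data known. Genes named were fixed reference subunits, isoform pairs, up to 6 called rises and 6 called falls per comparison, the 3 members just above the count limit and the candidates below it, the mtDNA-encoded genes and up to 3 called list genes per direction. Genes called with the block alone, Ndufa12-ps, Rbm10, AA467197 and further list genes, members with shared windows or exons and those with printed promoters were named after their values were seen. Promoter windows were taken from RefSeq (GRCm38.p6), with 75 members matched by Ensembl identifier, symbol or synonym and 16 left without a window. Some genes that the rule would name are not reported here.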

Additional observations from a re-analysis of the deposited data

How the results depend on the processing

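The replicate block gave 7 called members in cDC1 BimS against WT, 9 in cDC1 RIPK3 against WT, 2 in cDC1 RIPK3 against BimS, 10, 15 and 20 in the same comparisons of cDC2s, in place of 4, 4, 0, 0, 1 and 0. In limma on unnormalized log2(count + 1) the counts were 0 and 1 in cDC1 BimS and RIPK3 against WT, and 1 and 4 in cDC2 BimS and RIPK3 against WT. The unnormalized scale moved the median of all genes by -0.12 in cDC1 RIPK3 and -0.15 in cDC2 RIPK3 against WT. One fit of all 17 samples gave 0 and 2 in cDC1s and 4 and 2 in cDC2s for these 4 comparisons. In cDC2 BimS against WT no filter gave 3, and in cDC2 RIPK3 against WT no filter gave 2, and filterByExpr, limma on log2 CPM and members with a mean count of 100 or more gave 0 each. Leaving out 1 sample gave 2 to 5 calls in cDC1 BimS, 3 to 6 in cDC1 RIPK3 and 0 to 1 in cDC1 RIPK3 against BimS, 0 to 2 in cDC2 BimS, 0 to 3 in cDC2 RIPK3 and 0 in cDC2 RIPK3 against BimS. The 52 calls between cell types became 45 to 55 when 1 sample was left out and 48 to 55 otherwise, and the 3 interactions stayed at 0 in every setting. On unnormalized counts the difference between cell types changed sign for Cox6b1 (0.0253), Ndufs1 (0.0941) and Sdha (0.0680), on a scale that moved the median of all genes by 0.17. The rises of Atp5if1, Ndufab1 and Ndufa4 in cDC1s under both kinds of debris were not called on that scale either. Over 85 named calls and their alternatives, 1558 of 1733 values kept direction and call, 172 kept the direction alone and 3 reversed. Limits: cDC2 RIPK3 has 2 samples, and without one of them the other is assumed to vary like the other groups. Low members such as Cox6b2 rest on few counts, and members that share sequence or exons with other genes are uncertain.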

Other observations

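AA467197, a gene outside the naming rule whose human counterpart is a known relative of NDUFA4, was looked up after the values of Ndufa4 were seen. It had 8.72, 5.596 and 5.44 CPM in cDC1 WT, 6.01, 3.13 and 3.97 in BimS and 4.45, 3.82 and 4.03 in RIPK3. In cDC2s it had 26.9, 22.3 and 33.5 CPM in WT, 17.3, 15.6 and 19.7 in BimS and 21.6 and 16.9 in RIPK3, and every debris sample was below every WT sample. It fell in cDC2s by 0.66 under BimS (adjusted p = 0.00567, edgeR) and by 0.53 under RIPK3 (adjusted p = 0.0498), and had -0.59 (adjusted p = 0.108) and -0.68 (adjusted p = 0.0559) in cDC1s. It was 2.09 lower on the log2 scale in cDC1s than in cDC2s (adjusted p = 6.5e-12).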
